A study of Mus musculus with 12 samples.

Results

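CD8 T cells that carry PD-1 inside a tumour fall into stem-like cells, which renew themselves, and terminally exhausted cells, which descend from them and carry the surface receptors Tim-3 and 2B4. PD-1 is an inhibitory receptor kept on T cells under chronic antigen. Stem-like cells are known for genes shared with naive and memory cells, and Tim-3+ cells for granule proteases and inhibitory receptors. The comparison described here sets PD-1+ Tim-3+ against PD-1+ Tim-3- tumour-infiltrating lymphocytes (TIL) over all genes and asks how the terminal cells differ from the stem-like cells of the same kind of tumour.

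The members are 7 of the 12 arrays of the series, chosen by their titles: 4 of PD-1+ Tim-3+ and 3 of PD-1+ Tim-3- CD8 TIL. The other 5 arrays hold naive CD8 cells from the spleen of mice also aged 6 to 8 weeks, entered the fit and are quoted beside some results. By the labels, Tim-3- TIL were also 2B4- and are called stem-like, and Tim-3+ TIL were also 2B4+ and are called exhausted. Both TIL groups came from mice of the strain labelled C57bl/c, aged 6 to 8 weeks, that bore B16F10-GP, a transplanted skin melanoma injected in the flank at 500000 cells. Tumours were digested with collagenase and DNase and sorted between day 17 and day 19, with no drug treatment stated for these arrays. The labels do not say whether replicates came from separate or pooled mice, so the p-values measure the spread between these samples, which may in part be technical.

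Levels are log2 intensities of Affymetrix probe sets, 1 probe set per gene, for 18193 genes. A change is the mean over Tim-3+ arrays minus the mean over Tim-3- arrays, with its SE from limma (n = 4 and 3), and a gene rose or fell where the Benjamini-Hochberg adjusted p over all genes was below 0.05. Group means below log2 5.71, percentile 40 of the genes, are called dim. No detection calls were used here, so a change against a dim group may understate the true one. In sorted populations, fewer cells expressing a gene and less RNA per cell cannot be told apart.

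Across genes, which are not independent replicates, Pearson's r was 0.988 or more between arrays of the same TIL group and 0.982 or less between Tim-3- and Tim-3+ arrays. The T cell marker Cd3e, named outside the rule, lay at 12.23 and 12.24 in the Tim-3- and Tim-3+ means, and Cd8a at 12.63 and 12.85. Of 11 lists of other cell types, 62 of 114 members were dim in both TIL groups. By their values the 12 arrays also part into a set A of 5 and a set B of 7 arrays, which no label names. Set A holds the first Tim-3- array and the first pair of Tim-3+ arrays beside naive ones, so its lone Tim-3- array was assumed to vary like the others. A change within a set is given where it lies over 1.5-fold from the change over all arrays.

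The sort markers separated as labelled. Havcr2, which encodes Tim-3, read 6.55, 7.50 and 7.20 on the Tim-3- arrays and 11.57, 11.87, 11.58 and 11.61 on the Tim-3+ arrays. Cd244a, which encodes 2B4, read 5.77, 4.54 and 4.35 against 11.86, 12.05, 11.02 and 11.04. The groups did not overlap for either gene. A further Cd244a probe set changed by 2.45, less than the 6.61 ± 0.33 of the brighter one, and Havcr2 changed by 5.18 within set A. Pdcd1, which encodes PD-1, was at 11.37 ± 0.089 (SD) and 11.77 ± 0.17, a change of 0.39 ± 0.17 that did not pass (limma adjusted p = 0.152).

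Of the 18193 genes 13.5% were called, 7.77% as higher and 5.77% as lower in Tim-3+ TIL, and 22.7% had no overlap between Tim-3- and Tim-3+ arrays. Of all 2463 called genes, 2355 had no such overlap. Of the 207 called genes named here, 206 had none, with Dtx4 as the exception. The naming rule took its largest changes only from genes without overlap, so that share was largely set by the choice. The falls were fewer but larger. Among called genes the median change was 0.72 for the 1413 that rose and -0.83 for the 1050 that fell, and at 4-fold or more 76 rose and 109 fell. At 8-fold or more, 30 rose and 25 fell. Among the genes that rose, 235 were dim in Tim-3- TIL, and among those that fell, 261 were dim in Tim-3+ TIL. Each count of list members below is to be read beside the 7.77% of all genes that rose and the 5.77% that fell. The lists were chosen with earlier results of these data known, so their counts describe and do not test.

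**Figure D1:**
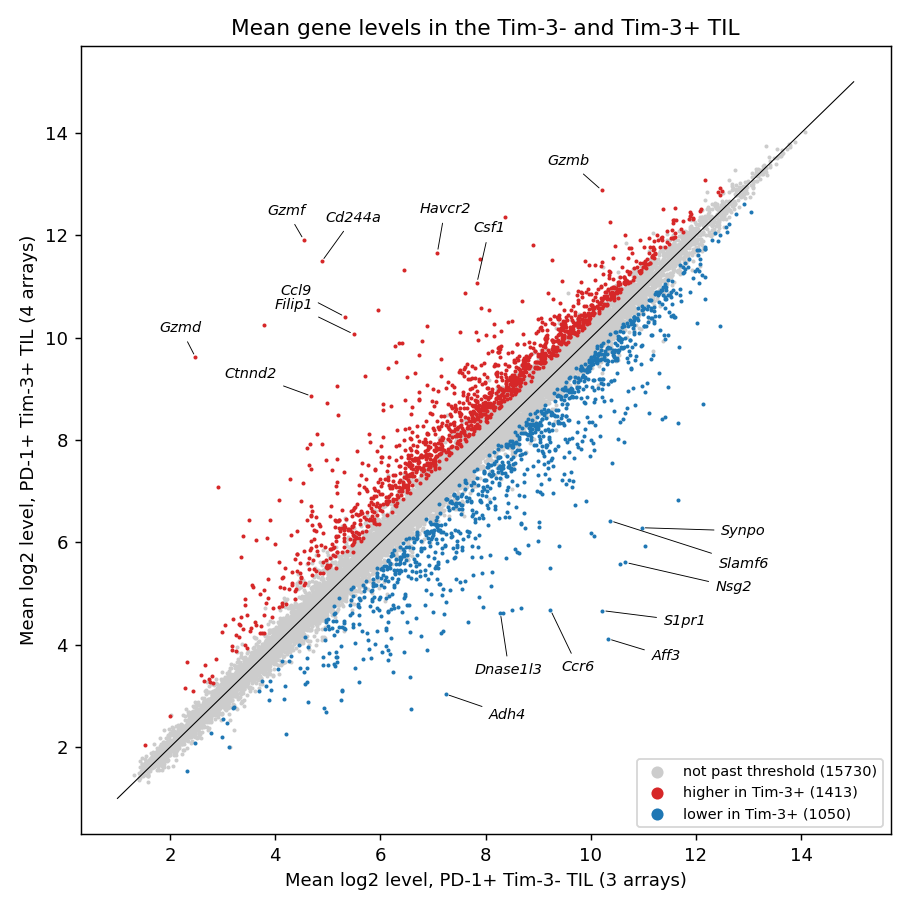
Mean log2 level of each of 18193 genes in PD-1+ Tim-3- TIL (x axis, 3 arrays) against PD-1+ Tim-3+ TIL (y axis, 4 arrays), coloured by limma call, with the diagonal of equal levels. Gzmf, Gzmd and Cd244a lie farthest above the diagonal, and Aff3 and S1pr1 farthest below it.

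The granule protease genes held 3 of the 4 largest rises, beside Cd244a. Granzymes are serine proteases that killer cells release into their targets, and in mice Gzmb, Gzmc, Gzmf, Gzmg, Gzmd and Gzme sit in 1 cluster on chromosome 14. Gzmf read 4.77, 4.49 and 4.37 on the Tim-3- arrays and 11.48, 12.03, 11.92 and 12.21 on the Tim-3+ arrays, a change of 7.37 ± 0.19 (adjusted p = 4.7e-11). Gzmd read 1.84, 2.49 and 3.12 against 9.04, 9.53, 9.76 and 10.15. Both genes were dim on all 3 Tim-3- arrays and bright on all 4 Tim-3+ arrays. Other genes of the cluster rose as well: Gzme rose by 6.46 ± 0.25, Gzmc by 4.60 ± 0.30, Gzmg by 2.75 ± 0.17 and Gzmb by 2.67 ± 0.30. Gzmb was already bright in Tim-3- TIL, at 9.62, 10.90 and 10.11, and the 4 Tim-3+ arrays lay close together, at 12.83 to 12.93. Its change was 3.28 in set A. Gzmn, of the same cluster, was dim in both groups and did not pass (0.23 ± 0.15, adjusted p = 0.384).

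The granule list, granzymes included, had 16 of 36 measured genes rise and 6 fall (median change 0.36, against 0.011 over all genes). Of its 10 granzymes 7 rose and 1 fell, and of the other 26 genes 9 rose and 5 fell. Sytl2, which tethers granules to the cell membrane, rose by 2.10 ± 0.17, and Lyst, which controls the size of lysosome-related granules, by 1.71 ± 0.13. Rab37, a small GTPase of secretory vesicles, went the other way: it read 9.24, 9.65 and 9.71 on the Tim-3- arrays and 6.60, 7.49, 7.48 and 7.02 on the Tim-3+ arrays. The protease inhibitors that guard the cell against its own granules rose in 3 of 11 and fell in 1. Serpinb9, which blocks granzyme B, rose from 9.81 ± 0.24 to 11.08 ± 0.20. Its relative Serpinb9b rose further, by 3.54 ± 0.32 (adjusted p = 5.2e-06). Adam8, a membrane metalloprotease of leukocytes, changed by 3.54 ± 0.18.

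Of 28 measured chemokine genes, 4 rose (Ccl9, Ccl6, Ccl3 and Ccl4), 5 fell and 19 did not pass. Ccl9 read 4.97, 5.55 and 5.46 in Tim-3- TIL and 10.21, 10.64, 10.33 and 10.47 in Tim-3+ TIL, and was dim in the former. Its neighbours on chromosome 11, Ccl6, Ccl3 and Ccl4, rose as well, so that these 4 protein-coding genes form an unbroken run of rises among measured genes in RefSeq order. Ccl3 read 9.67, 7.71 and 7.75 in Tim-3- TIL. On Tim-3+ replicates 1, 3 and 4 it read 12.85, 11.64 and 11.90, with replicate 2 slightly above replicate 1, a change of 3.98 ± 0.47. Leaving out Tim-3- replicate 1, the brightest of its group, raised that to 4.62, and within set A it was 3.25. Ccl4 rose by 2.61 ± 0.48, by 1.88 within set B, and Ccl6 by 2.04 ± 0.26. Ccl5, a chemokine of cytotoxic cells, was at 12.74 ± 0.15 and 13.27 ± 0.065 and did not pass (adjusted p = 0.0787). It did pass in the fit of the 7 TIL arrays only (adjusted p = 0.0134), with the replicate block (0.0208), in set A (0.0474) and, narrowly, after quantile normalization.

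Cxcl10, a ligand of Cxcr3 induced by interferon, read 10.64, 10.55 and 10.68 in Tim-3- TIL and 8.79, 8.77, 7.90 and 8.15 in Tim-3+ TIL. Cxcl11, another such ligand, fell by 0.95 ± 0.16 but was dim in both groups, and Cxcl13, the ligand of Cxcr5, fell by 2.38 ± 0.20. Cxcl9, a further Cxcr3 ligand, changed by 0.02 ± 0.11 and did not pass. Among 20 cytokine genes 3 rose and 6 fell. Csf1, which sustains macrophages, read 8.27, 7.66 and 7.58 against 10.87, 10.92, 11.16 and 11.31, a change of 3.23 ± 0.21, and 2.62 within set A. Csf2, which encodes GM-CSF, fell by 1.40 ± 0.32 (-2.17 within set A). Il2, the T cell growth factor, read 7.54, 7.12 and 6.97 against 4.73, 4.96, 4.41 and 4.28, with a naive mean of 4.95. Lif, of the interleukin 6 family, fell by 1.58 ± 0.20. Il3, a myeloid growth factor, fell by 1.97 ± 0.36 (adjusted p = 0.0019), a call not reached within set B (-1.87, adjusted p = 0.064), and the change was -2.59 without Tim-3- replicate 2. Pglyrp1, a secreted protein that binds bacterial peptidoglycan, rose by 1.12 ± 0.12.

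TNF family ligands fell in 7 of 13 and rose in 1 (median -0.75). Tnfsf11, which encodes RANKL, the ligand that drives osteoclast formation, read 11.22, 11.26 and 11.55 in Tim-3- TIL and 7.25, 7.78, 9.30 and 9.28 in Tim-3+ TIL. The lower values belong to Tim-3+ replicates 1 and 2, and the change of -2.94 ± 0.51 went from -3.70 in set A to -2.12 in set B. Tnfsf8, the ligand of CD30, fell by 3.22 ± 0.27 (-2.38 in set A, -3.87 in set B), and Tnfsf14, also called LIGHT, by 2.46 ± 0.19. For Tnfsf14 a further probe set changed by -0.84. Lta, which encodes lymphotoxin alpha, and Cd70, the ligand of CD27, fell by 1.08 ± 0.16 and 1.09 ± 0.20.

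**Figure D2:**
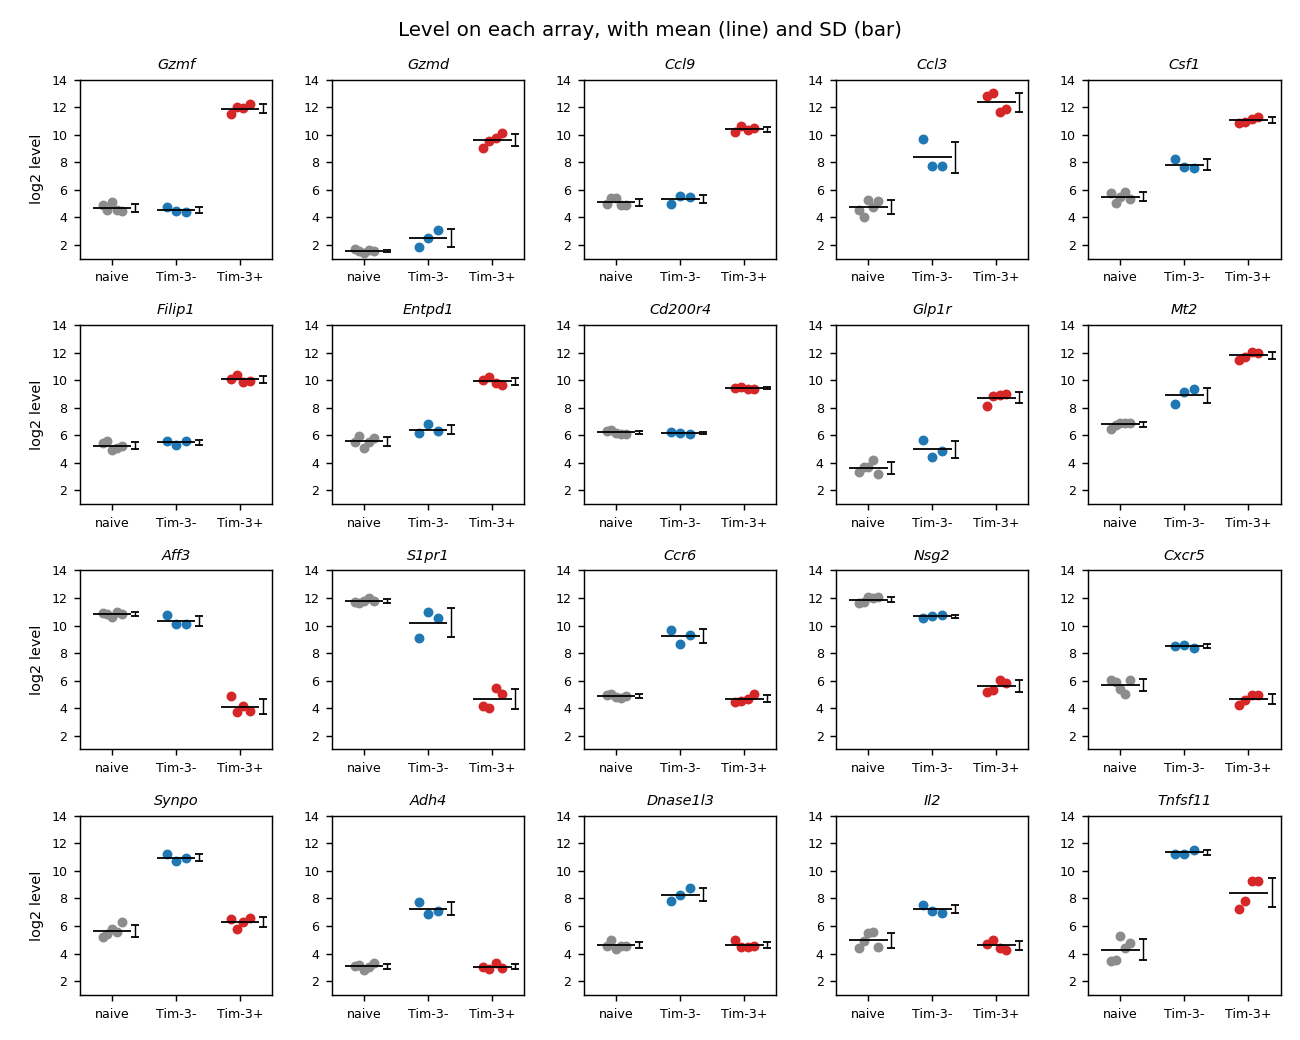
Log2 level (y axis) of 20 genes on each array of naive CD8 cells (grey, n = 5), Tim-3- TIL (blue, n = 3) and Tim-3+ TIL (red, n = 4); lines are means and bars SD. In all 20 panels the blue and red points do not overlap. Synpo, Adh4, Ccr6, Dnase1l3, Cxcr5, Il2 and Tnfsf11 have their highest mean in Tim-3- TIL.

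Of 34 chemokine receptors and receptors for egress and retention, 11 fell, 6 rose and 17 did not pass (median -0.18). S1pr1, the receptor that draws T cells toward blood and lymph, read 9.06, 11.02 and 10.58 in Tim-3- TIL and 4.16, 3.98, 5.47 and 5.06 in Tim-3+ TIL, a change of -5.55 ± 0.41 with a naive mean of 11.81. Ccr6, a receptor for Ccl20, read 9.68, 8.70 and 9.33 against 4.46, 4.55, 4.70 and 5.03, and here the naive mean was 4.88 and the change within set A -5.17. Cxcr5, which guides cells to B cell follicles, fell by 3.82 ± 0.24 and Cxcr3, a receptor for Cxcl10, by 2.56 ± 0.20. Ccr7, which guides cells to lymph nodes, fell by 2.23 ± 0.25, with -2.88 within set A, and Gpr18, a lipid receptor of lymphocytes, by 1.80 ± 0.14. Cd69, which holds cells in tissue by removing S1pr1 from the surface, fell by 1.13 ± 0.14. The S1pr1 relatives S1pr4 and S1pr5 changed by -0.22 ± 0.18 and -0.25 ± 0.21 and did not pass. The rises included Cxcr6, the receptor for Cxcl16, which read 8.74, 9.76 and 9.32 against 11.45, 11.61, 11.58 and 11.39. Ccrl2, a receptor that binds chemerin without known signalling, rose by 2.66 ± 0.27.

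Adhesion genes fell in 7 of 39 (17.9%, beside 5.77% of all genes) and rose in 3 (7.69%, beside 7.77%). Itgb7 and Itgae encode the chains of the integrin that binds E-cadherin on epithelium. Itgb7 read 11.06, 11.51 and 11.29 in Tim-3- TIL and 9.03, 9.43, 9.34 and 9.40 in Tim-3+ TIL (-1.99 ± 0.12). Itgae fell by 2.55 ± 0.43, with Tim-3+ replicates 1 and 2 at 6.05 and 6.17 and replicates 3 and 4 at 8.13 and 8.01. In set A it changed by -3.53 and in set B by -1.57, and -1.01 for a further probe set. The laminin and collagen receptor chains Itgb1 and Itga6 fell by 1.42 ± 0.10 and 1.02 ± 0.11. Of the plexins, receptors for semaphorins, Plxnc1 fell by 1.87 ± 0.19 while Plxnd1 rose by 1.13 ± 0.15, and the semaphorin Sema4f fell by 1.57 ± 0.13.

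Surface receptors of Tim-3+ TIL included several known from myeloid and NK cells. Cd200r4, an activating relative of the CD200 receptor, was the tightest of them, at 6.23, 6.13 and 6.06 in Tim-3- TIL and 9.41, 9.51, 9.39 and 9.34 in Tim-3+ TIL (3.27 ± 0.11, adjusted p = 5.7e-10). Cd200r1, its inhibitory relative, rose by 3.56 ± 0.31. Fcer1g, the signalling adaptor of Fc and NK receptors, read 6.42, 5.85 and 5.86 against 8.98, 8.65, 8.33 and 8.39. Styk1, a kinase-like receptor of NK cells, rose by 3.33 ± 0.35 from a dim level. Of 24 NK receptor and adaptor genes 9 rose and 2 fell (median 0.19): the lectin receptors Klrg1 and Klre1 rose by 1.41 ± 0.25 and 1.62 ± 0.31, and Klrb1f fell by 2.37 ± 0.26. Klrg1 was at 2.07 within set A. The separate list of NK cell markers had 8 measured members, of which 3 rose, 1 fell and 4 were dim in both groups. Its summed linear intensity lay between 2407 and 2527 on Tim-3- and between 2186 and 2993 on Tim-3+ arrays, and its mean log2 level between 5.80 and 6.04 on Tim-3- and between 6.56 and 6.75 on Tim-3+ arrays. Its member Ncr1 stayed at or below 3.44 on all 7 arrays. The part of NK cells in these changes was not tested.

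The enzymes that make adenosine outside the cell went opposite ways. Entpd1, which encodes CD39 and removes phosphates from ATP, read 6.13, 6.80 and 6.32 in Tim-3- TIL and 10.01, 10.20, 9.76 and 9.66 in Tim-3+ TIL. Nt5e, which encodes CD73 and acts in the next step, read 9.12, 9.91 and 9.84 against 6.24, 6.31, 8.48 and 8.47, and its change of -2.24 ± 0.49 lay at -2.84 for set A and -1.39 for set B. The groups did not overlap for either gene. Ceacam1, an adhesion receptor, rose by 2.65 ± 0.42, by 1.74 in set A and 3.55 in set B, and a further probe set changed by 0.50. Btla, an inhibitory receptor, fell from 10.51 ± 0.24 to 8.01 ± 0.24. Of 23 measured inhibitory receptors and ectoenzymes of exhausted T cells, 5 rose, 4 fell and 14 did not pass (median -0.007).

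Costimulatory receptors and TNF receptors fell in 11 of 31 and rose in 5 (median -0.21). Crtam, an adhesion receptor of activated T cells, fell by 1.66 ± 0.13, whereas Cd226, an activating receptor for nectin-like proteins, rose by 1.32 ± 0.26. Fas, the death receptor, read 8.10, 8.10 and 8.54 against 6.29, 6.95, 6.55 and 6.10. Tnfrsf13b, a receptor for BAFF, fell by 1.72 ± 0.23, the decoy receptor Tnfrsf22 by 2.69 ± 0.15 and Tnfrsf25, the receptor for TL1A, by 1.54 ± 0.27, all to a dim level.

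Of the genes named for their size of change, 4 further G protein-coupled receptors rose. No list of such receptors was fixed, so the 4 are examples and give no share. Those given above included S1pr1, Ccr6, Cxcr5, Cxcr3, Ccr7 and Gpr18, which fell, and Cxcr6 and Ccrl2, which rose. Glp1r, the receptor for the gut hormone GLP-1, read 5.67, 4.43 and 4.87 in Tim-3- TIL and 8.12, 8.87, 8.91 and 8.98 in Tim-3+ TIL (3.73 ± 0.30, and 2.83 within set A). Vipr2, a receptor for the neuropeptide VIP, read 6.74, 6.41 and 6.83 against 8.64, 9.32, 9.71 and 9.56. Both couple to cyclic AMP. Gpr35, a receptor reported to bind tryptophan metabolites, rose by 2.76 ± 0.16, and Adgrg1, an adhesion G protein-coupled receptor of cytotoxic lymphocytes, by 2.73 ± 0.21. Gpr183, an oxysterol receptor, fell by 2.16 ± 0.24, and the prostaglandin receptors Ptger2 and Ptger4 did not pass. Of 26 RGS regulators, G proteins and arrestins 7 rose and 2 fell, with Rgs8 at 2.06 ± 0.26 and Rgs10 at -2.26 ± 0.15.

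Of the surface and secreted genes of stem-like and memory cells, 22 of 31 measured members fell and 1 rose (median -1.13), beside 5.77% of all genes that fell. This list, which includes Dapl1, Nsg2 and Lrig1, was chosen with earlier results of these data known, so its share is a description and not a test. Slamf6, a homotypic receptor of the SLAM family, read 10.57, 10.13 and 10.40 in Tim-3- TIL and 5.84, 6.57, 6.46 and 6.83 in Tim-3+ TIL. Dapl1, a gene of naive and memory T cells, fell by 4.81 ± 0.25, Nsg2, an endosomal protein best known in neurons, by 5.05 ± 0.19, and Lrig1, which restrains growth factor receptors, by 5.11 ± 0.28. Il7r, the receptor chain for the survival cytokine interleukin 7, read 11.59, 11.82 and 11.54 against 6.81, 7.52, 9.47 and 9.54, so that Tim-3+ replicates 1 and 2 lay about 2 log2 units under replicates 3 and 4. Its change of -3.32 ± 0.51 differed by set, with -4.43 for set A and -2.18 for set B.

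Other surface genes that fell were Cd24a, a small glycosylated protein (9.48, 7.92 and 8.60 against 5.01, 4.68, 4.19 and 5.03), and Cd83, an activation marker (-2.86 ± 0.26). Emb, a chaperone of monocarboxylate transporters, fell by 3.42 ± 0.38 and Tgfbr3, a coreceptor for TGF-beta, by 2.83 ± 0.44. In set A the changes were -4.63 for Cd24a, -4.03 for Emb, -3.48 for Cd83 and -5.44 for Dapl1, and in set B that of Emb was -2.68. Il6ra, the receptor for interleukin 6, fell by 2.54 ± 0.21 and Ifnar2, a chain of the type I interferon receptor, by 1.10 ± 0.13. For Il6ra a further probe set changed by -1.03, and the change in set A was -1.90.

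Transcription factors tied to the stem-like state fell in 20 of 34 and rose in 1 (median -0.86). Aff3, a subunit of elongation complexes, had the largest fall of all genes: it read 10.75, 10.12 and 10.11 in Tim-3- TIL and 4.86, 3.69, 4.14 and 3.78 in Tim-3+ TIL (-6.21 ± 0.24). A further Aff3 probe set changed by -3.05. Klf3, a repressor of the Kruppel-like family, read 9.91, 11.14 and 10.60 against 5.24, 5.42, 6.10 and 5.56. Plagl1, a zinc finger factor, fell by 2.98 ± 0.50 and stood far above the naive mean of 5.30 in both TIL groups, at 11.42 and 8.44. It changed by -3.50 in set A, against -2.34 in set B. Bcl6, the repressor of follicular helper cells, fell by 2.69 ± 0.32, Bach2, which restrains effector genes, by 2.31 ± 0.14, and Lef1, a Wnt pathway factor, by 2.06 ± 0.16. Axin2, a standard Wnt target, read 8.33, 9.58 and 9.14 against 5.74, 6.46, 6.68 and 6.75.

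Smaller falls were seen in Foxp1 (-1.08 ± 0.12), which keeps T cells quiescent, and Klf2 (-1.80 ± 0.18), which drives S1pr1. The POU factor Pou6f1 fell by 2.71 ± 0.24, the zinc finger gene Zbtb10 by 2.79 ± 0.23, Tsc22d1 by 2.96 ± 0.21 and Otx1, a homeobox gene of brain development, by 2.60 ± 0.24 (-3.31 within set A). Factors of the effector list went both ways, with 7 of 39 rising and 6 falling (median 0.001). Prdm1, which encodes Blimp-1, read 6.76, 6.67 and 6.80 against 8.65, 8.99, 8.67 and 8.83. Id2, an inhibitor of E proteins, rose by 1.04 ± 0.11, Irf8 by 1.45 ± 0.22 and the pocket protein gene Rbl2 by 0.96 ± 0.10, while Eomes fell by 0.97 ± 0.12 and Tox2 by 1.53 ± 0.16. A further Tox2 probe set changed by -0.72. Arnt2, a partner of HIF and AHR family factors, rose from 5.18 ± 0.18 to 9.06 ± 0.45, and Ripply3, a repressor of T-box factors in development, from 6.73 ± 0.17 to 9.66 ± 0.28.

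Several of the largest changes fall on genes known from other tissues. Filip1, which binds filamin, read 5.58, 5.29 and 5.61 in Tim-3- TIL and 10.12, 10.40, 9.86 and 9.91 in Tim-3+ TIL (4.58 ± 0.17), and 2 of its probe sets gave 4.58 and 5.05. Ctnnd2, a neuronal catenin, read 4.82, 4.69 and 4.56 against 8.73, 8.97, 8.89 and 8.84. The groups lay far apart for both genes and the Tim-3- arrays were dim. Fgl2, a secreted or membrane-bound protein known from regulatory T cells, rose by 3.33 ± 0.19, the liver serine protease Tmprss6 by 3.23 ± 0.20, the ependymin-related Epdr1 by 3.03 ± 0.11 and the small GTPase Rasd2 by 3.25 ± 0.16. Chn2, a Rac GTPase-activating protein, rose by 3.13 ± 0.26, Ppp1r3b, a glycogen-targeting phosphatase subunit, by 3.30 ± 0.26, Sv2c, a synaptic vesicle protein, by 2.43 ± 0.43 and Cdh17, an intestinal cadherin, by 2.41 ± 0.21 (1.81 in set A). Ltf, which encodes lactoferrin and is a neutrophil marker, read 4.49, 4.82 and 4.67 against 7.94, 8.67, 7.62 and 7.43; the other 8 measured neutrophil markers were dim in both TIL groups and none passed.

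Among the falls of this kind, Synpo, an actin-binding protein of kidney podocytes and neurons, read 11.23, 10.71 and 10.97 in Tim-3- TIL and 6.50, 5.79, 6.28 and 6.59 in Tim-3+ TIL, with a naive mean of 5.65. Adh4, an alcohol dehydrogenase, read 7.78, 6.89 and 7.06 against 3.05, 2.91, 3.29 and 2.91, with a naive mean of 3.08. Dnase1l3, a secreted nuclease, fell by 3.66 ± 0.20, Spock2, a secreted proteoglycan, by 3.10 ± 0.25 and Prnp, the prion protein gene, by 2.61 ± 0.20. For these 5 genes the Tim-3- mean lay above the means of both Tim-3+ and naive cells. In set A the Adh4 change was -4.80, and a further Spock2 probe set changed by -1.34. Tdrp, by contrast, was brightest in naive cells (mean 12.21) and read 9.71, 10.26 and 10.25 against 6.24, 5.51, 6.22 and 6.52. Of cytoskeletal genes, the tubulin Tubb2b fell by 3.46 ± 0.34 and the microtubule minus-end protein Camsap2 by 2.96 ± 0.43, with -4.39 in set A and -2.75 in set B for Tubb2b and -2.34 in set B for Camsap2. Hectd2, a putative ubiquitin ligase, fell by 3.84 ± 0.30 to a dim level.

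**Figure D3:**
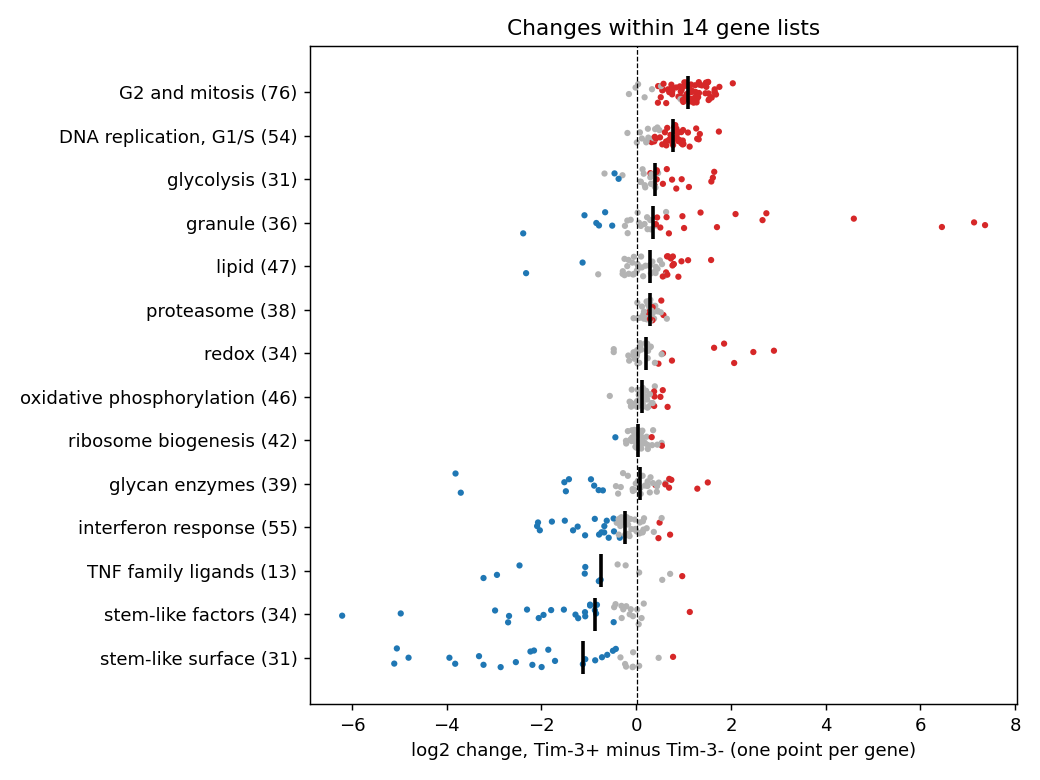
Log2 change (x axis, Tim-3+ minus Tim-3-) of each measured member of 14 gene lists, red where the gene rose, blue where it fell and grey where it did not pass, with black bars at list medians and a dashed line at the median of all genes (0.011). The medians run from 1.09 for G2 and mitosis genes to -1.13 for stem-like surface genes.

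Cell division genes rose together. Of 76 measured genes of G2 and mitosis 69 rose and 0 fell, with a median change of 1.09, and of 54 genes of DNA replication and the G1/S step 40 rose and 0 fell, with a median of 0.77. For comparison, 7.77% of all genes rose, and by the unadjusted limma p below 0.05 0 members of either list fell. The mean level of the mitosis list was 8.73, 8.15 and 8.67 on the Tim-3- arrays and 9.82, 9.45, 9.40 and 9.61 on the Tim-3+ arrays. The lowest was Tim-3- replicate 2 and the highest Tim-3+ replicate 1, and the groups did not overlap. Dlgap5, a spindle protein, read 7.75, 7.29 and 7.96 against 9.63, 9.25, 9.07 and 9.34 (1.66 ± 0.17). Anln, a scaffold of the cleavage furrow, rose by 1.53 ± 0.17, Ckap2, a spindle protein, by 1.17 ± 0.14, Ncapg, a condensin subunit, by 1.13 ± 0.15, and the motor proteins Kif20a, Kif23 and Kifc1 by 1.15 ± 0.15, 0.96 ± 0.13 and 1.15 ± 0.16. Cenpa, the centromeric histone, rose by 0.98 ± 0.11, but its most variable probe set changed by 0.37 (adjusted p = 0.482) and its next brightest by 0.32.

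Genes of this kind are known to be regulated through a CCAAT box, bound by NF-Y, and a cell cycle element with the letters TTTGAA. The DREAM and MYB-MuvB complexes bind that element. Both motifs were searched on both strands of RefSeq promoters of build GRCm38.p6, taken as 250 bases before to 50 after each gene start, with overlapping matches counted for both. Of 70 promoters of the mitosis list, 57.1% held both motifs, against 6.95% of all 32851 promoters. CCAAT alone was in 74.3% and 37.4%, and TTTGAA in 67.1% and 17.9%. Over all genes that rose 9.01% of promoters held both, and over genes that fell 2.96%. The matches are a description of the letters and do not show binding. The stretches below are from Ckap2 (chr8:22185827-22185928, minus strand) and Ncapg (chr5:45669741-45669908, plus strand). Of the named genes with a promoter to search (Anln, Ckap2, Ncapg, Kif23, Kifc1 and Cenpa), only these 2 held both motifs before the start. The 57.1% also counts matches up to 50 bases after it. Motifs are in capitals, with CCAAT read on the other strand as ATTGG.
Ckap2: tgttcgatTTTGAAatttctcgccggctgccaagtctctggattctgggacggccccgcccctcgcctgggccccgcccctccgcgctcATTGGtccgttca
Ncapg: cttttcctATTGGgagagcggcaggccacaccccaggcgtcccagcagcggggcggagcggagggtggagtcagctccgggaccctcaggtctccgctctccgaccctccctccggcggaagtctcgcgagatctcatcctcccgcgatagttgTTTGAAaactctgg
In Ckap2 the TTTGAA lies 101 and the ATTGG 20 bases before the start, and in Ncapg they lie 30 and 176 bases before it. The order of the 2 motifs is thus opposite in the 2 genes.

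On the replication side, Clspn, a checkpoint protein of the replication fork, rose by 1.34 ± 0.18, Chaf1b, a chromatin assembly subunit, by 1.27 ± 0.17 and Tk1, which salvages thymidine, by 1.32 ± 0.21. The helicase subunit Mcm2 read 9.37, 9.26 and 9.59 against 10.56, 10.27, 10.14 and 10.46. Gins3 and Orc1 rose by 0.83 ± 0.13 and 1.09 ± 0.18; a further Orc1 probe set changed by 0.16. The list of D cyclins, CDK inhibitors and quiescence genes was mixed: 8 of 35 rose, 6 fell and 21 did not pass (median -0.061). Cdkn1a, which encodes p21, read 7.16, 7.50 and 7.43 against 9.22, 9.19, 8.74 and 9.15. Cdkn2c, which encodes p18, read 8.15, 8.12 and 8.18 against 9.45, 9.46, 9.37 and 9.48. The neighbours Cdkn2a and Cdkn2b on chromosome 4 rose by 1.85 ± 0.19 and 2.07 ± 0.22, both from a dim level. Other inhibitors fell, Cdkn1b, which encodes p27, by 0.69 ± 0.13 and Cdkn2d, which encodes p19, by 0.73 ± 0.16. Cdk6, the kinase that the p15, p16 and p18 inhibitors bind, read 10.05, 9.98 and 10.20 against 11.47, 11.36, 11.43 and 11.47. Ccng1, a target of p53, rose by 0.63 ± 0.11, and Tob1, an antiproliferative protein, fell by 0.94 ± 0.12.

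**Figure D4:**
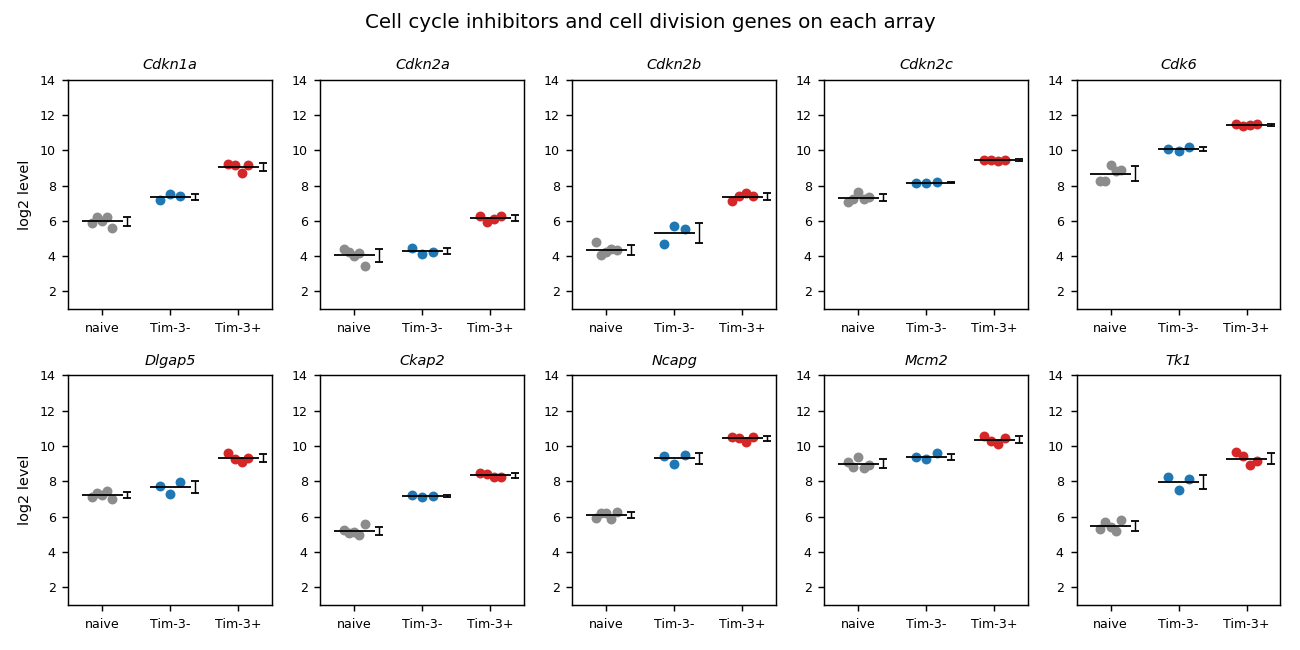
Log2 level (y axis) of 4 inhibitors of the cell cycle, the kinase gene Cdk6 and 5 cell division genes on each array of naive cells (grey, n = 5), Tim-3- TIL (blue, n = 3) and Tim-3+ TIL (red, n = 4), with means (lines) and SD (bars). In every panel all Tim-3+ arrays lie above all Tim-3- arrays.

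Metabolic lists had smaller medians than the division lists. Of 31 genes of glycolysis and glycogen 14 rose and 2 fell (median 0.39), of 47 lipid genes 14 rose and 2 fell (0.30), of 46 genes of oxidative phosphorylation 6 rose and 0 fell (0.12), and of 42 genes of ribosome biogenesis 2 rose and 1 fell (0.044). For ribosome biogenesis the shares of 4.76% risen and 2.38% fallen lay below the 7.77% and 5.77% of all genes. By the unadjusted p, 12 genes of oxidative phosphorylation were higher and 1 lower. Slc2a3, a glucose transporter, read 10.63, 9.37 and 9.65 in Tim-3- TIL and 11.84, 11.79, 11.24 and 11.15 in Tim-3+ TIL. Gbe1, the glycogen branching enzyme, rose by 1.59 ± 0.17, Gys1, glycogen synthase, by 0.56 ± 0.099, Hk1, a hexokinase, by 0.65 ± 0.11 and Slc16a3, a lactate exporter, by 1.11 ± 0.17. Together with the phosphatase subunit Ppp1r3b named above, 3 of these genes act on glycogen. Of 27 hypoxia genes 7 rose, 2 fell and 18 did not pass. Bnip3, Vegfa and Ero1a rose by 1.81 ± 0.23, 0.86 ± 0.14 and 0.81 ± 0.12.

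In the cholesterol pathway Fdps, which makes farnesyl diphosphate, rose by 1.58 ± 0.17, Lss, which closes the sterol ring, by 0.96 ± 0.11, and Sc5d, a sterol desaturase, by 0.77 ± 0.13 (0.18 with the most variable probe set, adjusted p = 0.548). Abca1, which exports cholesterol, read 4.45, 5.59 and 5.70 against 2.88, 2.82, 2.87 and 3.11, dim in both TIL groups beside a naive mean of 8.24, and its change in set A was -1.60. Acadl and Acot7, of fatty acid oxidation and acyl-CoA hydrolysis, rose by 0.78 ± 0.11 and 0.79 ± 0.15. Slc43a1, a transporter of large neutral amino acids, fell by 2.99 ± 0.33 (-2.34 in set A), and Psph, the last enzyme of serine synthesis, rose by 0.63 ± 0.12.

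Metal and redox genes rose in 8 of 34 and fell in 0 (median 0.21), with 1 lower by the unadjusted limma p. Mt2 and Mt1 encode metallothioneins, small proteins that bind zinc and copper, and are neighbours on chromosome 8. Mt2 read 8.25, 9.11 and 9.32 in Tim-3- TIL and 11.49, 11.67, 12.07 and 12.00 in Tim-3+ TIL (2.91 ± 0.22). Mt1 rose by 2.47 ± 0.24, and a further probe set changed by 0.89. The glutathione transferases Gsta4 and Gstm5 rose by 1.86 ± 0.17 and 1.65 ± 0.17, and Srxn1, which repairs oxidised peroxiredoxins, by 2.07 ± 0.24. Of 38 proteasome genes 6 rose, 0 fell and 32 did not pass (median 0.28). By the unadjusted limma p below 0.05, 21 of them were higher and 0 lower, beside 2546 higher and 1891 lower of all 18193 genes. Their change was positive in 37 of 38, beside 51.9% of all genes.

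Of 39 glycan enzyme genes 9 fell and 7 rose (median 0.089). St6gal1, which caps N-glycans with sialic acid, read 9.96, 9.91 and 10.14 in Tim-3- TIL and 6.18, 5.61, 6.55 and 6.42 in Tim-3+ TIL. St8sia1, which makes the ganglioside GD3, read 7.80, 8.65 and 8.55 against 4.30, 4.24, 4.98 and 5.00. Cmah, which hydroxylates sialic acid in mice and was not on that list, fell by 3.71 ± 0.19. The Golgi mannosidase Man1c1, also not on it, fell by 3.22 ± 0.31, St3gal1, which caps O-glycans, by 1.42 ± 0.14, Mgat5, which branches N-glycans, by 1.49 ± 0.19 (-2.16 within set A) and the sulfotransferase Chst15 by 1.52 ± 0.18. Galnt3, which starts O-glycans, rose by 1.51 ± 0.19. Further probe sets changed by -0.59 for St3gal1 and 0.74 for Galnt3.

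Interferon response genes fell in 18 of 55 and rose in 3 (median -0.24). Ifit3, an antiviral protein, read 9.55, 10.87 and 10.12 in Tim-3- TIL and 7.75, 8.18, 8.30 and 8.12 in Tim-3+ TIL. Oas3, a sensor of double-stranded RNA, fell by 1.78 ± 0.15, its relative Oasl2 by 2.07 ± 0.22, Slfn5 by 2.04 ± 0.24 and the GTPase Iigp1 by 1.33 ± 0.23. Most of the list, 34 genes, did not pass. Type I interferon acts through the factor ISGF3, which is known to bind repeats of GAAA. The letters GAAA, any 2 bases and again GAAA, on either strand, were in 46.9% of 49 promoters of the list, in 3.44% of all promoters and in 4.53% of those of all genes that fell. The stretches shown are those of Ifit3 (chr19:34583365-34583424, plus strand), Oas3 (chr5:120777717-120777742, minus strand) and Slfn5 (chr11:82951939-82951964, plus strand), the named genes with a match before the start among the 4 searched (Ifit3, Oas3, Slfn5 and Oasl2), with the match in capitals.
Ifit3: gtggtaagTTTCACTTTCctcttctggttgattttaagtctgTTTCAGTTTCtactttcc
Oas3: agggaggaGAAAACGAAAgtgaaggg
Slfn5: ttcaaagtGAAAAAGAAAaaaaaaaa
Ifit3 held 2 matches, 156 and 122 bases before its start and both read on the other strand, and Oas3 and Slfn5 held 1 each, 75 and 155 bases before theirs. The promoter of Oasl2 held 0 matches in this window.

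Signalling genes below the T cell receptor moved in both directions. Of 28 genes of the receptor-proximal pathway 4 fell and 0 rose (10 lower and 2 higher by the unadjusted limma p), and of 42 negative regulators 9 fell and 6 rose. Socs3, which blocks signalling by interleukin 6 family receptors, read 11.16, 11.09 and 10.70 in Tim-3- TIL and 9.30, 9.39, 8.90 and 8.66 in Tim-3+ TIL. The ubiquitin ligases Nedd4 and Rnf128, the latter also called GRAIL, rose by 1.56 ± 0.15 and 0.86 ± 0.14, and the adaptor Sla2 by 1.03 ± 0.14. Rasa3, which turns off Ras and Rap1, fell by 1.48 ± 0.15, Rasgrp2, which turns on Rap1, by 1.32 ± 0.17 and Spry1 by 1.11 ± 0.17. Sesn3, a stress protein that restrains mTORC1, read 10.68, 10.78 and 10.93 against 8.76, 9.15, 9.16 and 8.98. Pik3ip1, an inhibitor of PI3 kinase, fell by 1.09 ± 0.16, while the catalytic subunit Pik3cg rose by 0.99 ± 0.11.

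Ion handling genes fell in 9 of 36 and rose in 6. Stim2, a calcium sensor of the endoplasmic reticulum, fell by 1.13 ± 0.15 and Atp2a3, the calcium pump that refills it, by 1.26 ± 0.18. P2rx4, an ATP-gated channel, fell by 1.42 ± 0.14 and the sodium pump subunit Atp1b1 by 1.71 ± 0.18, with further probe sets at -0.49 and -0.43. Of 33 apoptosis genes 5 rose and 5 fell. Mlkl, the executioner of necroptosis, read 5.40, 6.38 and 6.24 against 7.58, 7.93, 8.04 and 8.04, and Dapk2, a death-associated kinase, rose by 1.78 ± 0.22. Among chromatin genes, of which 5 of 42 rose and 7 fell, the Polycomb cofactor Jarid2 fell by 1.12 ± 0.12 and the histone demethylases Kdm5b and Kdm6b by 1.04 ± 0.12 and 0.87 ± 0.11. The most variable probe set of Kdm6b gave -1.03 (adjusted p = 0.0504).

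Of 57 cytoskeleton and calcium-binding genes 14 rose and 6 fell (median 0.14). Anxa1 and Anxa4, which bind membranes in the presence of calcium, rose by 1.65 ± 0.28 and 0.99 ± 0.14, the myosin Myo1f by 0.92 ± 0.11 and S100a6 by 0.93 ± 0.20. Evl, which extends actin filaments, fell by 1.44 ± 0.14, but by 0.50 with its most variable probe set (adjusted p = 0.114). H2-Oa and H2-Ob, whose products adjust peptide loading of MHC class II, fell by 1.27 ± 0.16 and 2.27 ± 0.35. H2-Ob, dim in both TIL groups, read 6.14, 4.83 and 3.92 in Tim-3- TIL, and its change was -1.68 without Tim-3- replicate 1 and -3.32 in set A.

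Over the 11 lists of markers of other cells, 6 of 114 members rose and 12 fell, beside 7.77% and 5.77% of all genes. Ighm, the immunoglobulin heavy chain constant region, read 9.94, 9.95 and 10.11 in Tim-3- TIL and 7.98, 7.74, 8.35 and 7.90 in Tim-3+ TIL, with a naive mean of 11.44; of 10 B cell markers 3 fell and 7 were dim in both TIL groups. The summed linear intensity of the B cell list was between 1326 and 1448 on Tim-3- and between 527 and 619 on Tim-3+ arrays. Foxp3, the regulatory T cell factor, fell by 1.00 ± 0.13, while Cd4 was at 7.34 ± 0.18 and 7.50 ± 0.11 and did not pass. Of 8 markers of CD4 and regulatory T cells 2 fell, 0 rose and 1 was dim in both TIL groups. Their mean log2 level lay between 8.67 and 8.73 on Tim-3-, 8.42 and 8.58 on Tim-3+ and 6.42 and 6.57 on naive arrays. Melanocyte genes were spread within both groups: Dct read 5.72, 6.07 and 7.19 in Tim-3- TIL and 8.28, 4.92, 7.85 and 6.97 in Tim-3+ TIL, and Mlana was highest on Tim-3+ replicate 1, at 7.14. Of 14 melanocyte genes 0 passed by limma, and 2 were higher by its unadjusted p. The summed intensity of that list was between 750 and 1055 on Tim-3- and between 741 and 1715 on Tim-3+ arrays. Of 12 dendritic cell markers 2 fell, with sums between 5990 and 7089 on Tim-3- and between 1550 and 2719 on Tim-3+ arrays. Of 22 myeloid markers 2 rose and 2 fell (9.09% each) while 15 were dim in both TIL groups. The part of other cells in any change above was not tested. Xist was bright in both groups (11.97 and 11.67) and the Y-linked genes Eif2s3y, Kdm5d and Uty were dim on all 7 arrays.

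Within the groups, much of the widest spread among bright genes ran along the array sets, which were themselves drawn from the values of these arrays. Tim-3+ replicates 1 and 2 read 7.39 and 7.17 for Lmna, the nuclear lamina gene, and replicates 3 and 4 read 9.30 and 8.93. Pmepa1, a TGF-beta target, read 8.31, 9.33, 11.11 and 11.01 in the same order, Creb3l2 read 8.50, 8.42, 10.51 and 10.42 and Mest read 7.11, 7.86 and 9.37 on replicates 1 to 3, with replicate 4 near replicate 3. In all 4 genes the low pair was replicates 1 and 2, which are the Tim-3+ arrays of set A. Plagl1, with a range of 2.64, read 8.55, 6.78, 9.42 and 9.01, so that most of its range lay within that pair. Among Tim-3- arrays, replicate 1 was the low one for Lmna (8.16, 10.16 and 9.73) and Grb7 (6.76, 8.68 and 8.75) and the high one for Slc24a1 (9.71, 8.10 and 7.44). Lmna, Pmepa1, Creb3l2, Mest, Grb7 and Slc24a1 did not pass between the TIL groups over all arrays, nor did Spsb1 and Niban2. With the sets as a block Spsb1 (adjusted p = 0.030), Grb7 (0.035), Niban2 (0.035) and Pmepa1 (0.036) did pass. A block learned from the tested arrays lowers the residual spread by construction. The passes under that block are therefore no evidence of a difference between the TIL groups. Without Tim-3- replicate 1 Lmna passed too (-1.75, adjusted p = 0.036, against -1.15 over all arrays), and the Slc24a1 change went from -0.04 to 0.60 without passing. Grb7 changed by 1.11 over all arrays, by 2.07 in set A and by 0.46 without Tim-3- replicate 1. In set B Pmepa1 changed by -0.82 against -1.43 over all arrays, Mest by 0.92 against 0.29 and Creb3l2 by 0.18 against -0.53. Dtx4, an E3 ligase tied to Notch, fell by 2.15 ± 0.58 (adjusted p = 0.0236) and Ramp3, a coreceptor for calcitonin family receptors, by 2.19 ± 0.51. Leaving out Tim-3- replicate 1 moved the Dtx4 change to -3.04. Leaving out replicate 2 of that group moved it to -1.56, with the highest adjusted p of the fits that left out an array (0.131). The Dtx4 call also failed without the third Tim-3- or the first Tim-3+ array, in set A (-0.89) and in the fit of the 7 TIL arrays only (adjusted p = 0.083). Ramp3 missed the threshold when Tim-3- replicate 2 was left out (-2.03, adjusted p = 0.0510), and changed by -1.40 in set B.

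**Figure D5:**
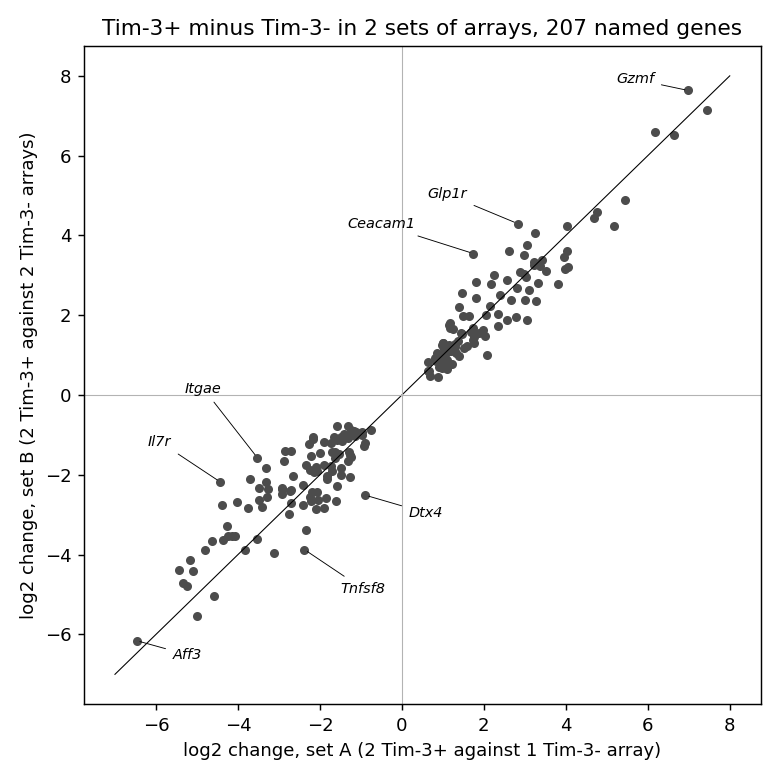
Log2 change within set A (x axis, 2 Tim-3+ arrays minus 1 Tim-3- array) against set B (y axis, 2 minus 2 arrays), with 1 point for each of the 207 genes named here that passed, and the diagonal of equal change. All 207 points have the same sign in both sets, as do 2461 of all 2463 called genes. The genes were called on these same arrays, so the shared sign is no replication. Between the sets 71 points differ by more than 1.5-fold, among them Il7r, Itgae, Ceacam1 and Dtx4.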

How the data were processed

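RNA of 12 sorted CD8 T cell samples was read on Affymetrix mouse expression arrays. The deposited table holds probe set intensities on a linear scale, which the authors normalized; per the submitters' processing notes RMA and affy were used, with versions not given in the sources used here. Precision is limited by how few arrays a group has. The log2 of each value was taken here. Of 45101 probe sets 34945 named 1 gene, and the brightest over the 12 arrays stood for each of 18193 genes. limma 3.58.1 in R 4.3.3 fitted 3 group means over all 12 arrays, with default eBayes moderation, two-sided p-values and Benjamini-Hochberg adjustment over all genes (threshold 0.05). The fit was tested on simulated data. Promoters are RefSeq's.

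The comparison, its gene lists and array sets were chosen with earlier results of these data known. The naming rule took genes of the sorting proteins, the 50 strongest rises and as many falls without overlap, up to 8 members per list by adjusted p and its 3 brightest, and the 8 genes of widest range in either TIL group, 529 in all. The 225 named here were picked from these with their values and stability known, favouring stable calls; Cd3e lies outside the rule. Gzmn, Cxcl9, Cd69, S1pr4, S1pr5, Gpr183, Ptger2, Ptger4, Cdkn1b, Cdkn2d, Dct, Mlana and Ncr1 were added after their values were seen and are not counted among the 225 or the 207 called.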

Additional observations from a re-analysis of the deposited data

Results flagged for a closer look

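Of 450 groups of arrays (225 named genes in Tim-3+ and in naive cells), 27 had 1 array that stood apart from the rest by Dixon's test at the 95% level, and chance marks about 1 in 20 groups. The group of 3 Tim-3- arrays was not tested. Values are log2 levels, with the range of the remaining arrays of the group. Tim-3+ replicate 1 stood apart for Glp1r at 8.12 (others 8.87 to 8.98), Pou6f1 at 5.83 (others 6.43 to 6.54) and Tmprss6 at 8.79 (others 9.72 to 9.85). The same array did so for Rasgrp2 at 5.65 (others 6.31 to 6.43). Tim-3+ replicate 2 stood apart for Havcr2 at 11.87 (others 11.57 to 11.61), Ccl5 at 13.37 (others 13.23 to 13.24) and Csf2 at 6.95 (others 6.19 to 6.23). The same array did so for Fgl2 at 10.58 (others 10.05 to 10.14), Chaf1b at 9.31 (others 9.51 to 9.55) and Stim2 at 8.52 (others 8.26 to 8.30). Tim-3+ replicate 3 stood apart for Cdkn1a at 8.74 (others 9.15 to 9.22), Acadl at 10.49 (others 10.37 to 10.38) and Acot7 at 11.22 (others 11.42 to 11.46). The same array did so for Man1c1 at 5.34 (others 4.50 to 4.61). Tim-3+ replicate 4 stood apart for Il6ra at 5.55 (others 5.34 to 5.34). naive replicate 1 stood apart for Abca1 at 7.75 (others 8.33 to 8.44) and Ltf at 4.40 (others 4.76 to 4.87). naive replicate 2 stood apart for Vipr2 at 4.98 (others 4.60 to 4.70) and Cdh17 at 4.09 (others 3.36 to 3.46). naive replicate 3 stood apart for Pdcd1 at 5.68 (others 4.90 to 5.07), Cd8a at 12.76 (others 12.82 to 12.84) and Anxa4 at 6.69 (others 6.02 to 6.15). naive replicate 4 stood apart for Ccl5 at 7.42 (others 8.23 to 8.35), Btla at 11.05 (others 10.77 to 10.85) and Foxp1 at 11.87 (others 11.51 to 11.61). The same array did so for Epdr1 at 4.31 (others 4.21 to 4.24). naive replicate 5 stood apart for Csf2 at 4.40 (others 5.00 to 5.21). No Tim-3+ array that stood apart reached the values of the Tim-3- arrays for the called genes among these.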

How the results depend on the processing

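Over the alternatives that changed the probe set per gene, normalization, dim genes, weights, moderation or arrays in the fit, between 2039 and 3348 genes passed in place of 2463, apart from the settings named next. Within set A 1590 passed (850 higher in Tim-3+ TIL), and with a minimum change of 2-fold 201 passed (86 higher and 115 lower). Leaving out each TIL array in turn gave 1666 (without Tim-3- replicate 2) to 2447 genes, of which 907 to 1331 were higher. Of the 2463 genes 1412 passed in all 7 of those fits, and 902 passed within both sets. Quantile normalization again gave 1243 higher and 1174 lower genes. Deviations of same-numbered TIL arrays from their group means correlated with r of 0.413, -0.131 and 0.268. Of the Tim-3- arrays only replicate 1 correlated best with its own number. The array sets enter these values, since Tim-3- replicate 2 lies in set B and Tim-3+ replicate 2 in set A. Whether the replicate numbers pair the arrays therefore cannot be told from them. With the replicate block 2750 genes passed (1561 higher and 1189 lower). The count of 3348 belongs to the fit with the array sets as a block. That split was learned from the tested arrays, so the higher count is no evidence of further differences. Of 4113 alternative fits of the 207 called genes named here 4005 kept their call, 108 missed the threshold and 0 turned direction. In all alternatives but the 2-fold minimum 200 of the 207 passed; Il3, Cenpa, Sc5d, Kdm6b, Evl, Dtx4 and Ramp3 did not. Of the 18 named genes that did not pass, 9 (Cd8a, Ccl5, Lmna, Pmepa1, Creb3l2, Grb7, Mest, Spsb1 and Niban2) passed under at least 1 alternative. The called genes were picked with their stability known, so these shares do not describe called genes in general. The causes were not tested. Signal near background limits the size of changes in dim genes.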
